A study of Mus musculus with 24 samples.

Results

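Macrophages and neutrophils were followed in mouse arrays through 10 genes, Csf1r, Adgre1, Itgam, Mrc1, Cd14, Cd68, Lyz2, Cx3cr1, S100a8 and S100a9. Each gene was represented by the probe set that carries its symbol alone in the platform annotation, and all 10 had exactly 1 such probe set among the 22180 genes with one. Expression was measured on 24 single-colour arrays, 3 in each of 8 groups. The groups were the genotypes labelled wildtype and Mutant, each at 4 stages with the codes V (taken to mean virgin), dp12 and dp18 (pregnancy) and Lac10 (lactation). The mice of every group had the same mixed background of FVB, 129SVEV and Black Swiss, and no age is given. The subject of the series is BRCA1, but the labels name neither the allele nor a promoter that would drive a deletion, nor the tissue. The design text gives the stage numbers as months, so the codes are printed as labelled. The treatment text describes a pull-down through a FLAG-tagged PAB-1 protein, whereas the extraction text describes total RNA, and this is not settled. The sample titles number the wild-type mice within a group, carry a separate identifier for each mutant and mostly add a body weight, so the 3 arrays of a group are read as 3 animals.

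Macrophages depend on the receptor Csf1r, which binds the growth factors Csf1 and Il34 and keeps the cells alive and dividing. In the mammary gland they surround ducts and alveoli, take part in branching and alveolar growth during pregnancy and clear dying epithelium after weaning. Neutrophils arrive from the blood along gradients of chemokines such as Cxcl1, Cxcl2 and Cxcl5 and carry large amounts of the calcium-binding proteins S100a8 and S100a9. In bulk tissue a lower level of a marker can mean fewer of its cells or less RNA per cell, and these cannot be told apart.

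Values below are log2 expression values, and a difference is a difference of log2 means with its standard error (SE). Levels of different probe sets were not set against each other. The tissue was checked on 8 milk-protein and secretory genes, whose mean level per array lay between 8.10 and 9.60 in the 6 virgin arrays and between 11.1 and 12.4 in the 6 Lac10 arrays. All 8 rose from V to Lac10 in the average of the genotypes, by a median of 2.71. Brca1 itself differed between mutant and wild type by -0.14, 0.45, 0.15 and -0.14 at V, dp12, dp18 and Lac10 (SE 0.31 each), and none of these passed the test. The arrays were not equally spread. The SD of all log2 values within an array was 1.65 in mutant Lac10 array 2, 1.68 in wild-type dp18 array 1, 1.71 in mutant dp18 array 1 and 1.77 in wild-type virgin array 1, against a highest value of 1.99. The first 3 of these had a median correlation with the other arrays of 0.799, 0.837 and 0.863. Named differences of the 8 genes tested below are given both ways where they turn or move by over 1.5 times without these 3 arrays. The second value stands here or in the closing section. Differences of S100a8, which was not tested, are given with all arrays only.

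Promoter sequence was at hand from RefSeq (build GRCm38.p6) for 7 of the 10 genes. The windows were searched for GAGGAA, the core letters bound by the macrophage transcription factor Spi1 (PU.1), on both strands, where the reverse complement reads TTCCTC. At least 1 copy lay within 250 bases before the start in 4 of the 7, Cd68, Itgam, Mrc1 and S100a8, and none in Lyz2, S100a9 or Cx3cr1. The same letters occurred in 23.3% of all 32851 windows of that length. A match of this kind is a description of letters and not a binding site. Over the 24 arrays the correlation with Csf1r was 0.803 for Cd68, 0.715 for Itgam, 0.58 for Mrc1 and 0.0426 for S100a8, which held the letters. For Lyz2, S100a9 and Cx3cr1, which did not, it was 0.876, -0.473 and 0.12. A link between the letters and these correlations was not tested. The windows of Cd68, Mrc1 and Cx3cr1 are shown as examples with and without the letters. They lie at chr11:69666171-69666420 on the minus strand (Cd68), chr2:14229164-14229413 on the plus strand (Mrc1) and chr9:120068297-120068546 on the minus strand (Cx3cr1), and each reads 5′ to 3′ toward the start with the searched letters in capitals.
Cd68: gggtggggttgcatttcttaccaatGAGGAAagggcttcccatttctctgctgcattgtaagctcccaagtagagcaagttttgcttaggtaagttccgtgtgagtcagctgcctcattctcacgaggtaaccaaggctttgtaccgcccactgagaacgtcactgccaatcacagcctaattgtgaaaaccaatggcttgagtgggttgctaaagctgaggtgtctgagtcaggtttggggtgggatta
Mrc1: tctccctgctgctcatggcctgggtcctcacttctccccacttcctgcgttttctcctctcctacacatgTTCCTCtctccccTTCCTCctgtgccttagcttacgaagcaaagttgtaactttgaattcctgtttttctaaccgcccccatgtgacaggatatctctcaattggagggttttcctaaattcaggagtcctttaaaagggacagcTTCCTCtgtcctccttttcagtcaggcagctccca
Cx3cr1: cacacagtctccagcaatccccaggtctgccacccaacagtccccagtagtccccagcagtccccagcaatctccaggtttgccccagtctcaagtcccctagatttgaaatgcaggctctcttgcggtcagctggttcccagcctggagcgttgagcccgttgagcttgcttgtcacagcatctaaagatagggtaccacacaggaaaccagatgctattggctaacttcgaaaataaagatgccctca

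A gene was tested where at least 3 of the 24 arrays lay above their own median. Of the 10 genes, 8 passed, while S100a8 was above the median on 2 arrays and S100a9 on 0. In 22 comparisons of genotype and stage, 0 of the 8 tested genes passed limma's moderated test at a Benjamini-Hochberg adjusted p of 0.05. At an unadjusted p under 0.05 in this test, 1 of the 8 was counted from V to Lac10 in wild type (Mrc1) and 1 in mutants (Cx3cr1). In the average of the genotypes it was 1 from dp12 to dp18 (Cx3cr1) and 2 from V to Lac10 (Mrc1 and Cx3cr1). Of all 15234 genes tested, 3739, 3730, 4424 and 3206 lay under the same limit in these steps, in the order given. These counts therefore do not set the 8 genes apart from all genes tested. The 8 group means of each gene could be ordered, but the arrays of neighbouring groups in that order overlapped in all 7 pairs for each of the 10 genes. Neighbours in a sorted order are the closest groups, so such overlap is likely for any gene, and its share over all genes was not counted. Groups farther apart in the order can still separate, as some do below.

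**Figure D1:**
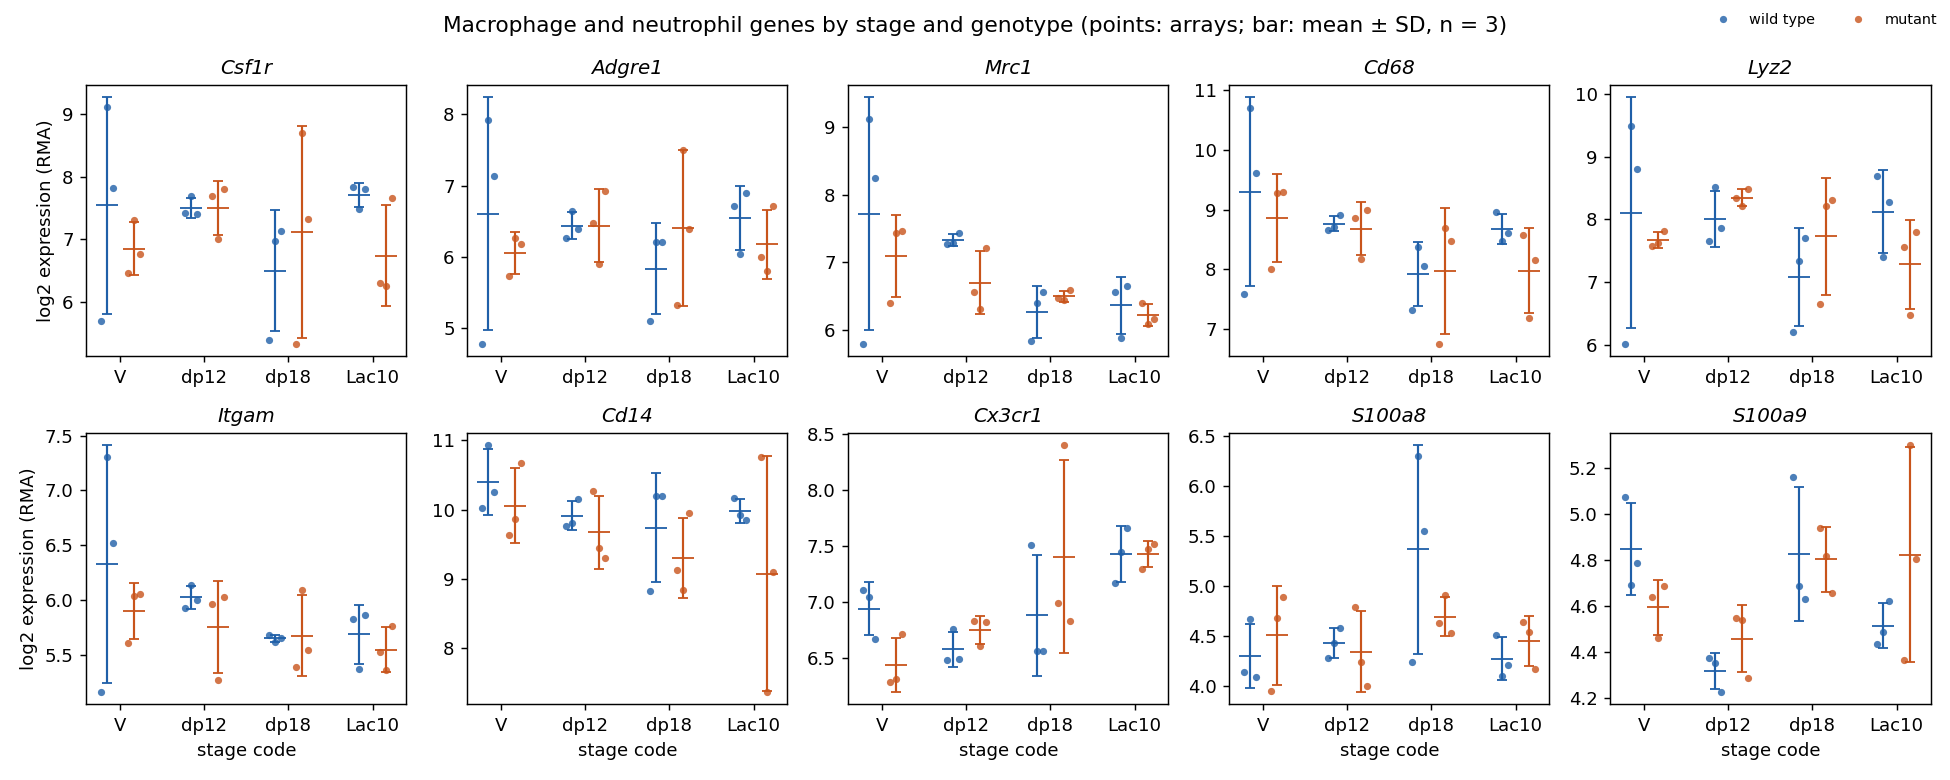
Log2 expression of each of the 10 genes (vertical axis) by stage code (horizontal axis), wild type in blue and mutant in orange. Points are arrays, the horizontal line is the mean and the bar the SD over 3 arrays, and the wide bars at V show how far apart the 3 wild-type virgin arrays lay for Csf1r, Adgre1, Mrc1, Cd68, Lyz2 and Itgam.

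Csf1r is the growth factor receptor of the lineage. Its level was 5.69, 9.12 and 7.81 in the 3 wild-type virgin arrays, 7.42, 7.69 and 7.41 at dp12, 5.39, 6.98 and 7.13 at dp18 and 7.84, 7.49 and 7.81 at Lac10. The mutant arrays read 6.47, 7.30 and 6.77 at V, 7.69, 7.01 and 7.81 at dp12, 5.32, 8.70 and 7.33 at dp18, then 6.31, 6.25 and 7.67 at Lac10. Wild type was tight at dp12 and Lac10 (SD 0.16 and 0.19), while wild-type V and mutant dp18 each held one array near the bottom and one near the top of the whole series (SD 1.73 and 1.70). The group means ran from 6.50 in wild-type dp18 to 7.71 in wild-type Lac10, and the gap between them, 1.22 ± 0.73 (SE), did not pass (adjusted p = 0.732) and was 0.66 without the 3 arrays of low correlation.

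Adgre1, which encodes the macrophage surface protein F4/80, moved with Csf1r. In wild type its arrays read 4.78, 7.91 and 7.13 at V, 6.27, 6.65 and 6.39 at dp12, 5.09, 6.21 and 6.20 at dp18 and 6.71, 6.04 and 6.90 at Lac10. The mutant arrays read 5.72, 6.26 and 6.18 at V, 6.48, 5.90 and 6.93 at dp12, 5.32, 7.50 and 6.39 at dp18 and 6.00, 5.80 and 6.72 at Lac10. The highest and the lowest of the 24 values were both wild-type virgin arrays. The means of the 8 groups spanned 0.77, less than the SD within groups of 0.80.

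Itgam encodes the alpha chain of the adhesion receptor CD11b on macrophages and neutrophils. It lay close to the array medians and was above them on 20 of 24 arrays. Wild-type virgin arrays read 5.16, 7.30 and 6.52, and the other 21 arrays lay between 5.27 and 6.14. Among the stage steps compared, its largest difference was wild type V to Lac10, -0.64 ± 0.36 (SE, adjusted p = 0.269). It moved with the virgin arrays, from -1.23 without wild-type array 1 (adjusted p = 0.0127) to -0.15 without array 2 (adjusted p = 0.803).

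Mrc1 encodes the mannose receptor of tissue-resident macrophages. In wild type it was 5.80, 9.12 and 8.24 at V, 7.27, 7.28 and 7.43 at dp12, 5.83, 6.40 and 6.57 at dp18 and 6.57, 5.89 and 6.66 at Lac10. Mutant values were 6.40, 7.44 and 7.46 at V, 6.57, 6.32 and 7.22 at dp12, 6.47, 6.44 and 6.59 at dp18 and 6.41, 6.10 and 6.16 at Lac10. The 12 arrays of dp18 and Lac10 lay between 5.83 and 6.66, and every array above that range came from V or dp12. The virgin arrays overlapped them. Mutant virgin array 1, at 6.40, lay within that range, and wild-type virgin array 1, at 5.80, was the lowest of all 24. The difference from V to Lac10 was -1.11 ± 0.37 (SE) in the average of the genotypes (adjusted p = 0.0737) and -1.35 ± 0.52 in wild type (adjusted p = 0.118). Without wild-type virgin array 1 both passed, at -1.59 and -2.31 (adjusted p = 0.000356 and 0.000966), and so did the averaged step V to dp12 at -0.87 (adjusted p = 0.0151). Without wild-type virgin array 2 the differences from V to Lac10 shrank instead, to -0.76 and -0.65 (adjusted p = 0.188 and 0.417).

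Cd68, a glycoprotein of the lysosome membrane, showed the same spread at V, with wild-type arrays at 7.58, 10.69 and 9.61 and mutant arrays at 8.01, 9.28 and 9.29. At dp12 wild type read 8.66, 8.71 and 8.90 and mutants 8.86, 8.17 and 8.99. At dp18 the values were 7.33, 8.37 and 8.06 in wild type and 6.75, 8.69 and 8.47 in mutants, while Lac10 gave 8.95, 8.48 and 8.60 in wild type and 8.58, 7.19 and 8.15 in mutants. The lowest array of wild-type dp18, of mutant dp18 and of mutant Lac10 was in each case one of narrow spread. The averaged difference from V to Lac10 was -0.75 ± 0.42 (SE; adjusted p = 0.33). It passed without wild-type virgin array 1, at -1.18 (adjusted p = 0.0481), and was -0.40 without array 2 (adjusted p = 0.643).

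Lyz2 encodes the lysozyme that macrophages and neutrophils make to break down bacterial cell walls. Wild-type virgin arrays read 6.02, 9.49 and 8.81, whereas the 3 mutant virgin arrays lay within 7.58 and 7.82. Mutant dp12 arrays read 8.34, 8.21 and 8.48, all above the mutant virgin arrays, and the difference of 0.67 ± 0.64 (SE) did not pass (adjusted p = 0.767). The remaining groups ran from 6.21 to 8.69 and overlapped with these.

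Cd14 is the co-receptor that hands lipopolysaccharide to Tlr4, and epithelial cells can make it as well as monocytes. Of the 24 arrays 23 lay between 8.83 and 10.93, and mutant Lac10 array 2 stood apart at 7.37. The mutant Lac10 group held 10.77, 7.37 and 9.10 and so spanned nearly the whole series (SD 1.70), against 10.18, 9.92 and 9.85 in wild type. The mutant minus wild-type difference at Lac10 was -0.90 ± 0.57 (SE; adjusted p = 0.403) and shrank to -0.049 without mutant Lac10 array 2. The mutant step from V to Lac10, -0.98 with all arrays, was -0.13 without that array (adjusted p = 0.963). Without mutant Lac10 array 1 these values were -1.75 and -1.82, of which the second passed (adjusted p = 0.063 and 0.0235). Over the 24 arrays Cd14 correlated with the mean of 11 luminal epithelial markers at r = 0.681 and with the mean of 40 other macrophage genes at r = 0.423. The luminal mean was 9.82, 6.62 and 7.74 in the 3 mutant Lac10 arrays, lowest in array 2 as Cd14 was, and 8.62 to 9.84 in wild type. The part of epithelial content in the Cd14 values was not tested.

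Cx3cr1, the receptor of the membrane-bound chemokine Cx3cl1, had the narrowest spread of the 8 tested genes, with an SD within groups of 0.40. It read 7.11, 7.04 and 6.67 in wild-type V and 7.16, 7.44 and 7.66 in wild-type Lac10. In mutants it read 6.28, 6.31 and 6.71 at V and 7.30, 7.47 and 7.52 at Lac10. All 6 Lac10 arrays lay above all 6 virgin arrays, a separation seen for 1 of the 8 tested genes and for 1.23% of all genes tested. Between these stages, wild-type dp12 read 6.48, 6.76 and 6.48 and mutant dp12 6.82, 6.61 and 6.82. At dp18 wild type read 7.51, 6.56 and 6.56 and mutants 6.99, 8.40 and 6.83. The highest array of the series for Cx3cr1, mutant dp18 array 2, was therefore no Lac10 array. The averaged difference from V to Lac10 was 0.74 ± 0.22 (SE), with an adjusted p of 0.0516 that just missed the threshold. The mutant step alone gave 0.99 ± 0.32 (adjusted p = 0.0796) and the wild-type step 0.48 ± 0.32 (adjusted p = 0.35). The averaged difference stayed between 0.67 and 0.81 in 21 alternative settings, with adjusted p from 0.000888 to 0.132, and passed in 7 of them. These included the averages without wild-type Lac10 array 1 and without mutant Lac10 array 1 (adjusted p = 0.045 and 0.0439). Cx3cr1 ran against the mean of the 11 luminal markers over the 24 arrays (r = -0.744). The luminal mean was 8.75 to 9.89 in the 6 virgin arrays and 6.62 to 9.84 in the 6 Lac10 arrays. The part of epithelial content in the Cx3cr1 values was not tested. Its ligand gene Cx3cl1 read 6.95 to 8.26 in virgin and 7.13 to 8.18 in Lac10 arrays, which overlap.

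S100a8 and S100a9 form the calprotectin heterodimer of neutrophils and inflammatory monocytes. Both had low levels, and 21.6% and 24.1% of all genes measured had a lower mean. S100a9 stayed between 4.23 and 5.30 on all 24 arrays, and its highest arrays were mutant Lac10 array 2 (5.30) and wild-type dp18 array 1 (5.16), both of narrow spread. Over the 24 arrays it ran against the median correlation of each array with the others (r = -0.803). S100a8 read 4.24, 6.31 and 5.55 in wild-type dp18, and the 22 arrays other than the last 2 of these lay between 3.94 and 4.91. The 2 raised arrays had S100a9 levels of 4.69 and 4.63, within the range of the other groups. S100a9 lay below the median of every array, so its level cannot show whether it moved with S100a8. Other neutrophil genes were unequal. Of 24 measured, 15 passed the filter. The granule genes Mpo, Elane, Ctsg and Camp were above the array median on 0 arrays, Prtn3 on 9, Mmp9 on 23 and Ltf and Lcn2 on 24. Ltf and Lcn2 are made by epithelium too. Of the surface genes Ly6g was above it on 3 arrays, Cd177 on 20, Csf3r on 23 and Cxcr2 on 24.

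**Figure D2:**
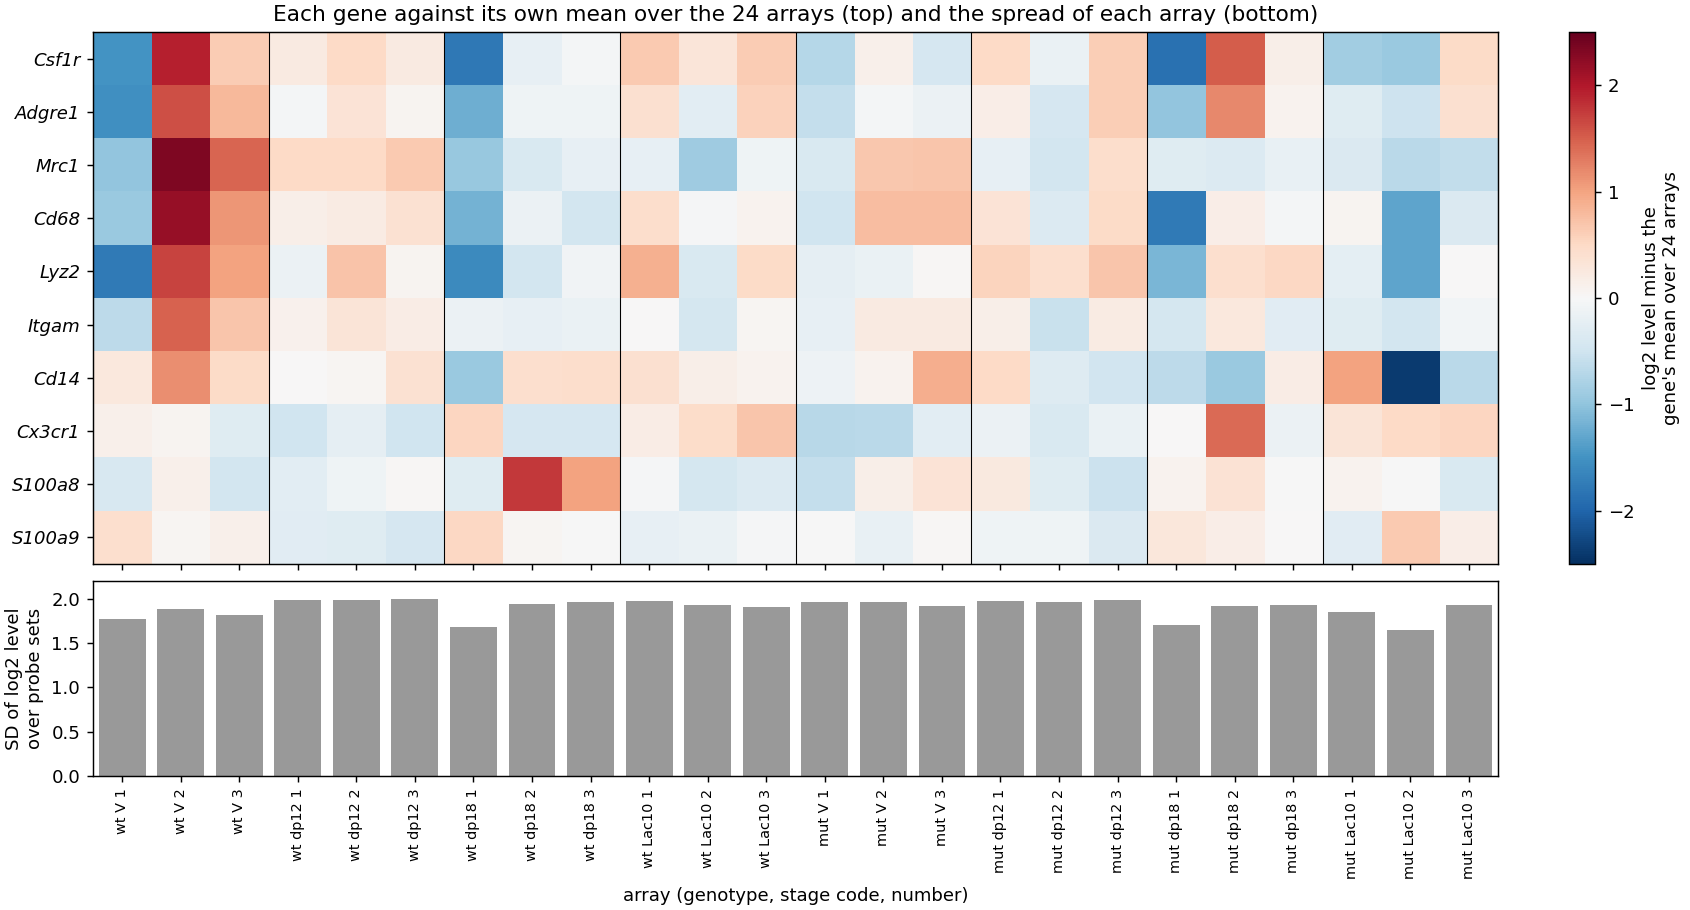
Level of each gene minus its own mean over the 24 arrays (colour scale, log2; rows are genes, columns are arrays, and vertical lines divide the groups). The bars below give the SD of all log2 values within each array, and the blue columns for wild type V 1, wild type dp18 1, mutant dp18 1 and mutant Lac10 2 stand over the 4 shortest bars.

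The genes moved as a block across single arrays. Cd68, Adgre1, Csf1r, Lyz2, Itgam and Mrc1 had pairwise correlations between 0.58 and 0.949 over the 24 arrays (median 0.803). Within groups, after each group's mean was removed, the range was 0.667 to 0.958. Without the 3 arrays of median correlation under 0.9 it was 0.538 to 0.947. It was 0.461 to 0.935 without the 2 arrays farthest from the median of the first gene of a pair. The 6 were formed by leaving out Cx3cr1, Cd14, S100a8 and S100a9, so the split describes these same arrays and was not tested on others. Cx3cr1 stood outside this block, with correlations to the 6 genes between -0.37 and 0.169, and so did S100a8 and S100a9 (-0.587 to 0.0835). Cd14 lay between (0.258 to 0.648). Without the 3 arrays of low correlation its range was -0.15 to 0.457, which overlaps that of Cx3cr1 in the same arrays (-0.3 to 0.379). The values share RNA extract, array and normalization, so these figures describe the arrays and carry no p. Wild-type virgin array 2 was the highest of 24 for 7 of the 8 tested genes, all but Cx3cr1. The mean of the 8 tested genes was lowest in the same 4 arrays that had the narrowest spread, at 6.48 to 6.52 against 6.96 in the next array. The part of array quality in these levels was not tested.

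**Figure D3:**
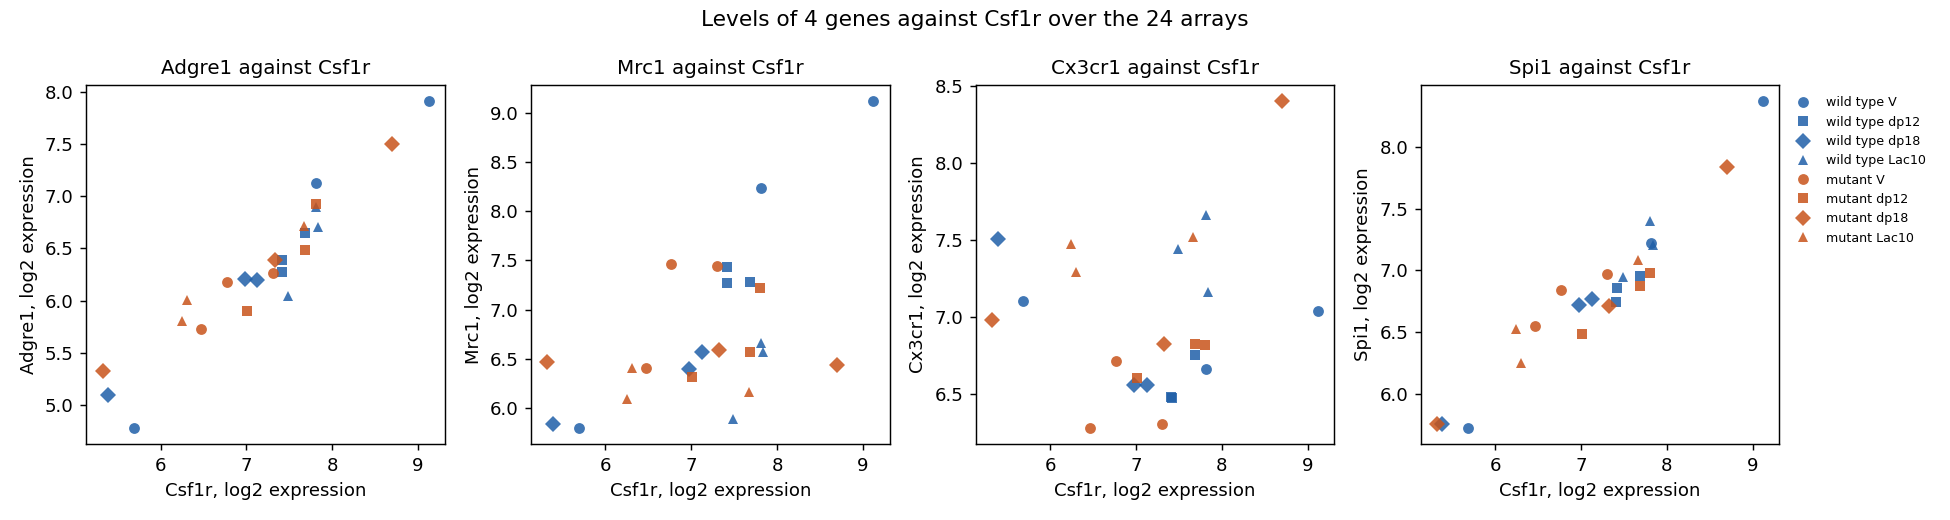
Log2 level of Adgre1, Mrc1, Cx3cr1 and Spi1 (vertical axes) against Csf1r (horizontal axes) over the 24 arrays, with colour for genotype and symbol for stage. Adgre1 and Spi1 lie along a line with Csf1r, while Cx3cr1 shows no such line.

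The genes most like Csf1r among 15226 others were Pld4 (r = 0.973), Spi1 (r = 0.957), C1qa (r = 0.951), C1qc (r = 0.945) and P2ry6 (r = 0.938), over 24 arrays. Spi1 is the lineage transcription factor whose letters were searched above, and C1qa and C1qc are chains of complement C1q. Without the 2 arrays farthest from the median of Csf1r these values were 0.90 to 0.962. Those most like S100a8 were Nnat (r = 0.697), Alpl (r = 0.65), Dzip1l (r = 0.648), Slc22a13b (r = 0.624) and Fam71f2 (r = 0.615). Without the 2 arrays farthest from its median the values were 0.0562 to 0.427, so these rest on the 2 raised wild-type dp18 arrays. For Cx3cr1, looked at after its pattern was seen, the closest were Gpr31b (r = 0.922), Lilra5 (r = 0.909) and Olfr558 (r = 0.812).

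The 3 wild-type virgin arrays differed in other cell types too. The mean of 40 other macrophage genes was 6.11, 7.79 and 7.01 in arrays 1, 2 and 3, that of 8 fibroblast markers 9.23, 10.7 and 9.79 and that of 8 endothelial markers 7.67, 9.57 and 8.38. The mean of 7 T cell markers was 5.21, 7.67 and 5.45, that of 7 B cell markers 5.25, 7.35 and 5.00 and that of 3 muscle markers 6.34, 8.94 and 6.68. Array 2 was the highest of the 3 in each of these lists, and array 1 the lowest in all but B cells. Other lists went the other way and were lowest in array 2. The mean of 11 luminal markers was 9.46, 8.75 and 9.46, that of 7 basal markers 9.18, 8.33 and 8.91 and that of 7 cell-cycle genes 6.50, 5.76 and 5.89. The part of these other cells in the macrophage levels was not tested.

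Between genotypes none of the 8 tested genes passed at any stage, and few genes of any kind did. The share of the 15234 genes tested that passed was 0.0263% at V, 0% at dp12, 0% at dp18 and 0.236% at Lac10, and 0% with the stages averaged. At V, 9 of the 10 genes were lower in mutants, with a median difference of -0.43 against 0.025 over all genes measured. Over the 8 tested genes it was -0.47 against 0.20 over all genes tested. Among the 8, the 2 largest differences were Csf1r at -0.69 ± 0.73 and Mrc1 at -0.62 ± 0.52 (SE; adjusted p = 0.615 and 0.528). Both turned positive without wild-type virgin array 2. At Lac10 the median of the 10 was -0.26 against -0.015 over all genes measured. That of the 8 was -0.54 against -0.19 over all genes tested, led by Csf1r at -0.97 ± 0.73 and Cd14 at -0.90. These medians are given with all arrays only and include mutant Lac10 array 2, of low correlation. Without the 3 arrays of low correlation Csf1r was -0.73 and Cd14 -0.049. At dp12 Mrc1 was -0.63 ± 0.52, with all 3 wild-type arrays above all 3 mutant arrays, a separation that 16.9% of genes showed, and Lyz2 was 0.33 ± 0.64. At dp18 the largest among the 8 were Lyz2 at 0.64 ± 0.64 and Csf1r at 0.62 ± 0.73, the second negative without mutant dp18 array 2 and 0.96 without the 3 arrays of low correlation. S100a8, which was not tested, differed by -0.67 at this stage. No tested gene separated at V (34.1% of all genes did), at dp18 (2.34%) or at Lac10 (15.7%). With the stages averaged, Cd14 at -0.48 and Cd68 at -0.29 were the largest of the 8, the second -0.12 without those 3 arrays. The moderated F test for a genotype difference that is unequal between stages called 0 of the 8, against 0.00656% of genes.

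**Figure D4:**
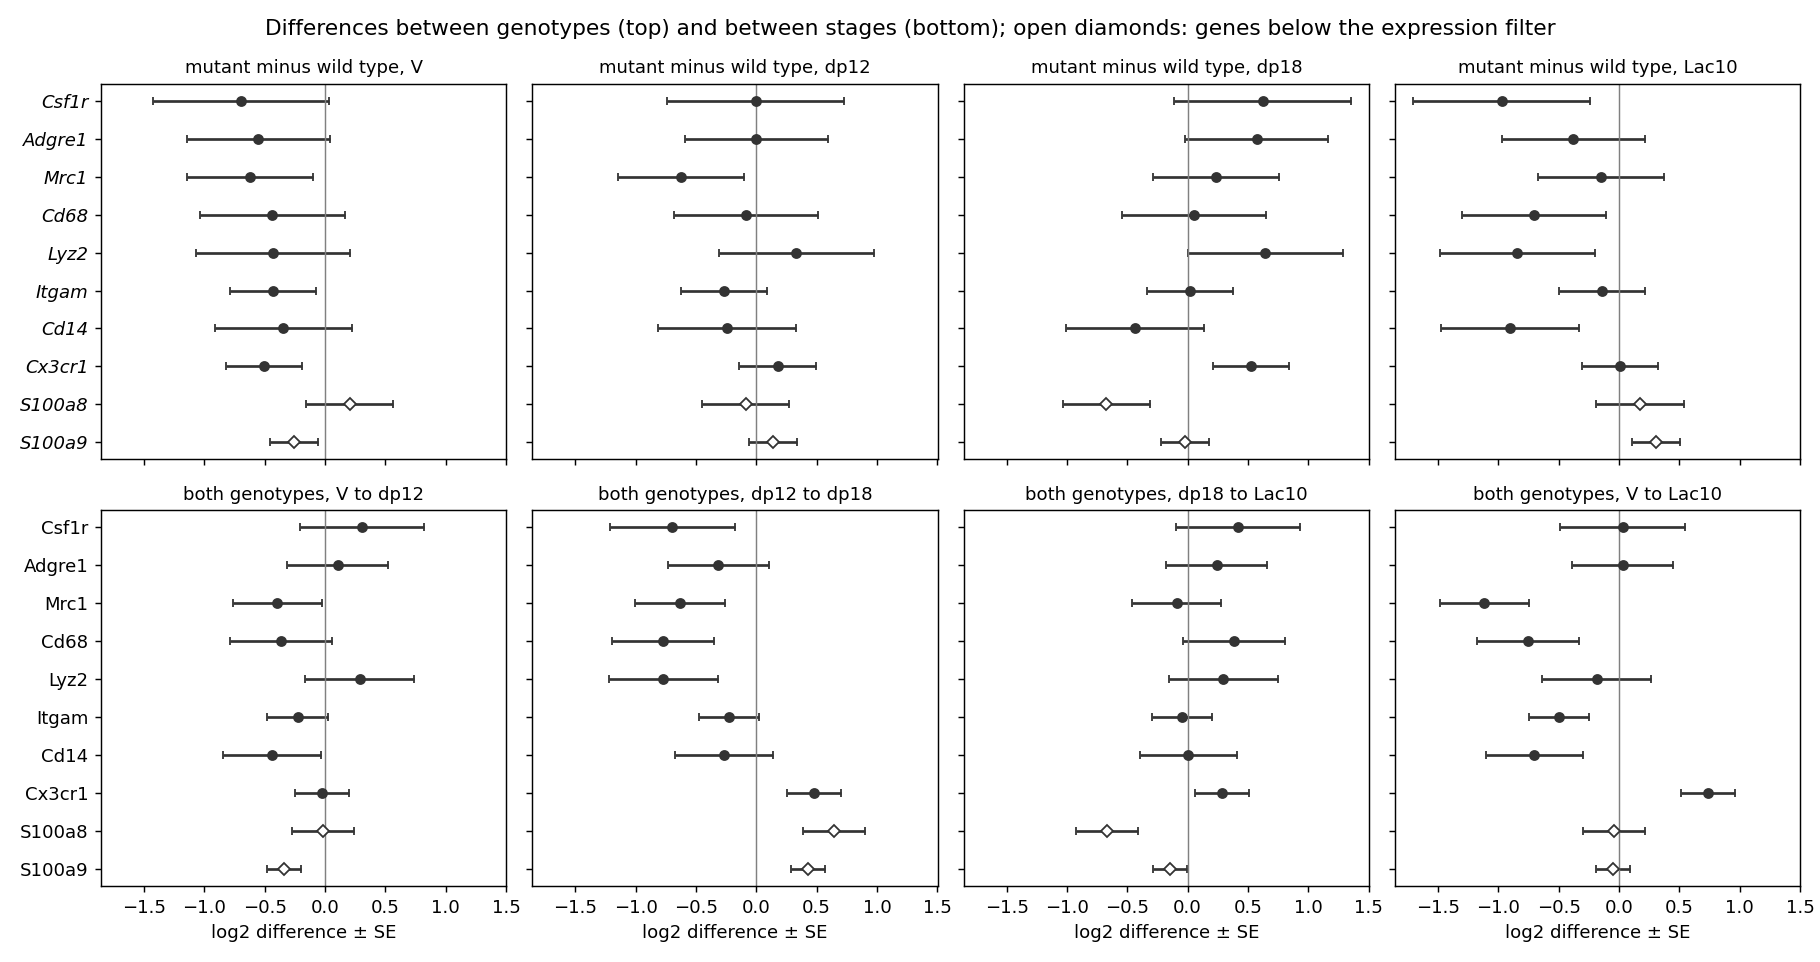
Log2 difference and SE of each gene (horizontal axes) for mutant minus wild type at each stage (top) and for later minus earlier stage in the average of the genotypes (bottom). Open diamonds are S100a8 and S100a9, which were below the expression filter, and Cx3cr1 from V to Lac10 lies farthest above 0 relative to its SE.

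Stage steps within a genotype called 0 of the 8 as well. In wild type the share of all genes that passed was 6.45% from V to dp12, 0% from dp12 to dp18, 0% from dp18 to Lac10 and 7.24% from V to Lac10. In mutants these shares were 4.44%, 0%, 0% and 2.88%. From dp12 to dp18 in wild type, 5 of the 8 tested genes separated completely, Cd68, Adgre1, Csf1r, Itgam and Mrc1, all lower at dp18, against 24.4% of all genes. The largest differences in this step were Mrc1 at -1.06 ± 0.52 and Csf1r at -1.01 ± 0.73 (SE; adjusted p = 0.484 and 0.511), the second -0.45 without the arrays of low correlation. The median was -0.49 over the 10 genes against -0.0035 over all genes measured, and -0.72 over the 8 against -0.21 over all genes tested. These medians are given with all arrays only and include wild-type dp18 array 1, of low correlation. Without the arrays of low correlation Mrc1 was -0.85. From dp18 to Lac10 in wild type Cd68 and Csf1r separated in the opposite direction (12.5% of genes did). In wild type 0 separated from V to dp12 (55.6%) and Cx3cr1 alone from V to Lac10 (37.4%). The largest differences among the 8 were Cd68 at -0.54 and Cd14 at -0.49 from V to dp12 in wild type, and Csf1r and Lyz2 at 1.22 and 1.04 from dp18 to Lac10 (0.66 and 0.60 without the arrays of low correlation). S100a8, not tested, differed by -1.09 in that last step. In mutants Lyz2 separated from V to dp12 (37.4%), Cx3cr1 from dp12 to dp18 (26.1%), Mrc1 from dp18 to Lac10 (2.48%) and Cx3cr1 from V to Lac10 (22.4%). The largest mutant differences among the 8 were Lyz2 at 0.67 and Csf1r at 0.65 from V to dp12, Cd68 at -0.70 and Cx3cr1 at 0.65 from dp12 to dp18, Lyz2 at -0.45 and Csf1r at -0.38 from dp18 to Lac10, and Cx3cr1 at 0.99 and Cd14 at -0.98 from V to Lac10. Without the arrays of low correlation Cd68 from dp12 to dp18 was -0.096 and Csf1r from dp18 to Lac10 -1.03.

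With the genotypes averaged, 15.8% of genes passed from V to dp12, 2.05% from dp12 to dp18, 0% from dp18 to Lac10 and 6.6% from V to Lac10, and again 0 of the 8. Among the 8 the largest differences were Cd14 at -0.44 and Mrc1 at -0.39 from V to dp12, Cd68 and Lyz2 at -0.77 each from dp12 to dp18, and Csf1r at 0.42 and Cd68 at 0.38 from dp18 to Lac10. Without the arrays of low correlation, Cd68 and Lyz2 from dp12 to dp18 were -0.32 and -0.28, and Csf1r and Cd68 from dp18 to Lac10 were -0.18 and 0.13. Leaving out mutant dp18 array 1 alone also turned Csf1r negative. None of the 8 separated 6 arrays against 6 in the first 3 of these steps, where 14.7%, 7.34% and 0.0328% of genes did. The difference between genotypes in a step called 0 of the 8 in each of 4 steps, against 0.00656% of genes from V to dp12, 0% from dp12 to dp18, 0% from dp18 to Lac10 and 0.0197% from V to Lac10. The largest of these differences among the 8 were Csf1r at -1.59 ± 1.03 and Lyz2 at -1.49 ± 0.91 from dp18 to Lac10 (SE; adjusted p = 0.742 each). They were Lyz2 at 0.76 and Csf1r at 0.69 from V to dp12, Mrc1 at 0.86 and Csf1r at 0.63 (0.97 without the arrays of low correlation) from dp12 to dp18, and Cd14 at -0.56 and Cx3cr1 at 0.51 from V to Lac10.

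Other genes of these cells and their signals were read from lists. Of 40 other macrophage genes tested, 2 rose and 3 fell from V to dp12 in the average of the genotypes. That is 12.5% of the list, below the 15.8% of all genes tested, and the list median was -0.12 against 0.13 over all genes tested. Those that rose were Lipa, a lysosomal lipase, by 1.36 ± 0.30 (SE; adjusted p = 0.004) and Mertk, a receptor for dying cells, by 1.29 ± 0.31 (adjusted p = 0.00838). Arg1, the arginase of alternatively activated macrophages, changed by -1.91 ± 0.23 (adjusted p = 1.97e-05) and Lyve1, a hyaluronan receptor shared with lymphatic vessels, by -1.27 ± 0.28 (adjusted p = 0.00415). Lgals3 was the third to fall. In the step V to Lac10, 4 fell and 0 rose (10.0% of the list against 6.6% of all genes tested), among them Arg1 at -1.88 ± 0.23 and Folr2 at -1.81 ± 0.42 (adjusted p = 4.53e-05 and 0.0139). The calls of Folr2, Lyve1 and Lgals3 in this step were lost when the compared groups alone were fitted (adjusted p = 0.0694, 0.0589 and 0.0529). That of Arg1 was kept in each setting run. Arg1 read 5.90, 6.21 and 7.08 in wild-type V and 7.68, 8.05 and 7.32 in mutant V, and 4.54 to 5.81 in the 18 later arrays. Every virgin array thus lay above every later one, and the share of all genes that do so was not counted. Arg1 was above the array median on all 6 virgin arrays and on 3 later ones, 1 of them mutant Lac10 array 2. Outside V it thus only just met the filter. The mutant minus wild-type difference of Arg1 at V was 1.29 ± 0.32 (adjusted p = 0.171).

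Of 20 chemokine, cytokine and growth factor genes tested, 5 fell and 0 rose from V to dp12, with a list median of -0.47. The 5, with Cxcl5 counted, make 25% of the list, beside 15.8% of all genes tested. These were the neutrophil attractants Cxcl2 at -1.44 ± 0.30 and Cxcl1 at -1.31 ± 0.42, the monocyte attractant Ccl2 at -1.36 ± 0.41 (SE; adjusted p = 0.00291, 0.039 and 0.0274), Osm, and the neutrophil attractant Cxcl5. Between V and Lac10, Il6 changed by -2.54 ± 0.65 and Ccl2 by -1.66 ± 0.41 (adjusted p = 0.0232 and 0.0175), which made 10.0% of the list against 6.6%. The call of Ccl2 from V to dp12 was lost without any 1 of wild-type dp12 arrays 1 and 2, wild-type V arrays 2 and 3, mutant dp12 array 2 or mutant V array 2 (adjusted p up to 0.0743). The call from V to Lac10 was lost without wild-type Lac10 array 2, wild-type V array 3, mutant V array 2 or mutant Lac10 array 3, and with the compared groups alone (up to 0.0586). That of Cxcl1 was lost without any 1 of 9 of its 12 arrays, all but wild-type dp12 array 3, wild-type V array 1 and mutant V array 1, and with no filter (up to 0.0969). That of Il6 was lost without any 1 of 7 of 12, all but wild-type Lac10 array 1, wild-type V array 1, mutant Lac10 array 1 and mutant V arrays 1 and 3 (up to 0.0661). The call of Cxcl2 was kept in each alternative setting that was run. Cxcl5 was above the array median on all 6 virgin arrays and on 2 others, so it passed the filter only through the stage where it is high, and its difference of -1.20 is given as a value. The count of 5 and its share of 25% include Cxcl5, so they were not read against the share of all genes. Csf1 and Il34, the ligands of Csf1r, did not pass in any averaged step. Of 15 other neutrophil genes tested, 2 passed from V to dp12 (13.3% against 15.8% of all genes tested), 1 from dp12 to dp18 (6.67% against 2.05%) and 3 from V to Lac10 (20.0% against 6.6%). Clec4e, a pattern receptor also found on macrophages, fell by 1.12 ± 0.37 from V to dp12 and by 1.26 ± 0.37 from V to Lac10 (SE; adjusted p = 0.0442 each). Its call held only without wild-type dp12 array 3 or wild-type V array 1 in the first step, and only without wild-type V array 1 or mutant Lac10 array 1 in the other, when 1 array was left out (adjusted p up to 0.121 in each step). Both were lost with no filter or with the compared groups alone, and the call from V to Lac10 also without the 3 arrays of low correlation. The related Clec4d, the other gene counted in both steps, was above the array median on 4 arrays, all virgin. It passed the filter only through that stage, so its differences, -1.01 and -0.98, are given as values. The shares of 13.3% and 20.0% include Clec4d, so they were not read against those of all genes. Ltf, which encodes lactoferrin, rose by 1.65 ± 0.36 from V to Lac10 (adjusted p = 0.00896). Its mean went from 8.17 to 10.79 in wild type and from 10.07 to 10.75 in mutants. At V the mutant minus wild-type difference of Ltf was 1.90 ± 0.51 and did not pass (adjusted p = 0.196). Retnlg rose from dp12 to dp18 by 0.71 ± 0.18 (adjusted p = 0.0495). Its call held only without wild-type dp18 array 2 or 3 or mutant dp18 array 3 when 1 array was left out (up to 0.156), and was lost with no filter, with housekeeping centring, without the 3 arrays of low correlation and with the compared groups alone. Of 10 genes of the lipopolysaccharide receptor path that Cd14 feeds, Ticam1 alone passed from V to dp12, at 0.56 ± 0.18 (adjusted p = 0.036; 10.0% of the list against 15.8%), and 0 passed from V to Lac10. The Ticam1 call was lost with either centring (adjusted p up to 0.549) and held only without wild-type dp12 array 3 or wild-type V array 2 when 1 array was left out. None of these 4 lists had a call in any genotype comparison. From V to dp12 fibroblast markers moved in the same step. Of these 8, 3 passed the test as lower, where 15.8% of all genes tested passed in either direction, and the list median was -0.46. In the same step 7 of 7 cell-cycle genes rose with a median of 2.57. The part of these other cells in the falls was not tested.

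**Figure D5:**
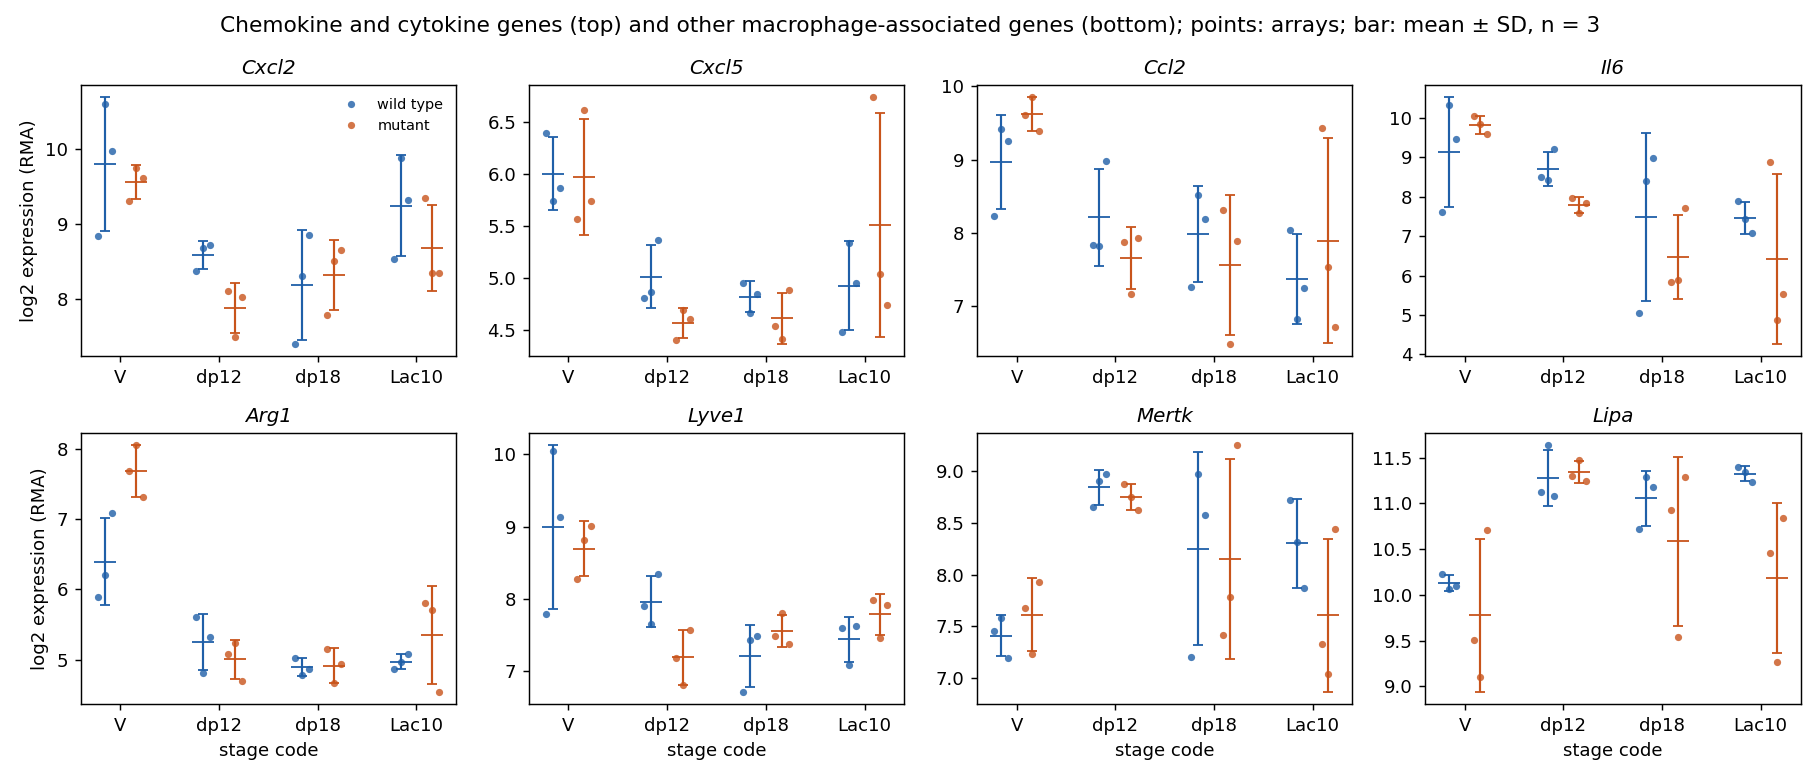
Log2 expression (vertical axes) by stage code (horizontal axes) of the ligand genes Cxcl2, Cxcl5, Ccl2 and Il6 (top) and of Arg1, Lyve1, Mertk and Lipa (bottom), wild type in blue and mutant in orange. Points are arrays, lines are means and bars the SD over 3 arrays, and the virgin arrays of Arg1 all lie above the later arrays.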

How the data were processed

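The deposited values are log2 expression values. Per the submitters' processing notes the authors made them with RMA, a robust average over probes, and no version is stated. RMA sets arrays to a common distribution, so a shift of most genes is not visible. Of 41345 probe sets, 23521 carry 1 symbol and were named, 1814 carry several and 16010 none. A gene was represented by its probe set of highest mean and tested where at least 3 arrays lay above their array's median, which left 15234 of 22180 genes. All 24 arrays were fitted with limma 3.58.1 (R 4.3.3), 1 mean per group, 16 residual and 4.35 prior degrees of freedom, Benjamini-Hochberg adjustment over all genes tested and a threshold of 0.05; the procedure was tested on simulated data. The number of arrays limits the precision.

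The 10 genes and the lists were chosen with earlier results of these data known. All 10 genes are named. Named in each comparison were those past the threshold or else the 2 of largest difference, and from a list up to 4 that passed. Wild-type arrays keep the number in their title, while the numbers of mutant arrays follow accession order and are names only. In 18 same-numbered wild-type pairs, deviations from the group means correlated between -0.387 and 0.31, so numbers were not treated as pairs. Alternatives covered probe sets, the filter, centring, a variance trend, array weights, fewer arrays and each array left out.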

Additional observations from a re-analysis of the deposited data

How the results depend on the processing

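The count of tested genes past the threshold, 0 in each of 22 comparisons, stayed 0 with no filter, both centrings and averaged probe sets. From V to Lac10 in the average it became 1 (Cx3cr1) with a filter on the mean level, with a variance trend, without the 3 arrays of low correlation and with the compared groups alone. The last setting also gave 1 from V to dp12 in mutants (Lyz2). Array weights gave 2, 1, 1 and 5 genes in the wild-type steps V to dp12, dp12 to dp18, dp18 to Lac10 and V to Lac10, 1 in mutants and 3 in the average from V to Lac10, 2 in the average from V to dp12 and 1 in the F test. They raised the calls among all genes, from 983 to 9731 in the first step, and the cause was not tested. Leaving out 1 array gave 0 to 1 from V to dp12 in wild type and in the average (Mrc1, without wild-type virgin array 1). From V to Lac10 it gave 0 to 2 in wild type (Itgam and Mrc1, without the same array), 0 to 1 in mutants (Cd14, without mutant Lac10 array 1) and 0 to 3 in the average (Cd68, Itgam and Mrc1 without wild-type virgin array 1, Cd14 and Cx3cr1 without mutant Lac10 array 1, and Cx3cr1 without wild-type Lac10 array 1).

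No difference that changed sign had passed the test. With housekeeping centring Csf1r from dp18 to Lac10 in mutants became 0.043 and the genotype difference of Cd14 in V to Lac10 0.17. Array weights made the latter 0.64, Cd14 at Lac10 0.44, Cd14 from V to Lac10 in mutants 0.29 and Csf1r from dp18 to Lac10 in the average -0.31. Without the arrays of low correlation the first became 0.29 and the last -0.18. Leaving out 1 array moved Csf1r between -1.62 and 0.10 and Mrc1 between -1.58 and 0.083 for genotype at V, and Cd68 between -1.39 and 0.16 from V to dp12 in wild type. It moved Csf1r between -0.17 and 1.52 for genotype at dp18, between -1.27 and 0.41 from dp18 to Lac10 in mutants and between -0.030 and 0.81 in the average. It moved the genotype difference of Csf1r between -0.10 and 1.62 in V to dp12 and between -0.17 and 1.52 in dp12 to dp18, and that of Cd14 between -1.40 and 0.29 in V to Lac10.

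Under housekeeping centring the median over all genes shifted by -0.24 (genotype at V), 0.49 (genotype at Lac10) and -0.45 (averaged V to dp12). With the wild-type number as a replicate block, 0 of the 8 passed in each of the 4 wild-type steps, with 781, 0, 0 and 1263 genes called against 1467, 0, 0 and 1296 in wild-type arrays with no block, a comparison chosen after seeing the data. The block changed no call of the 8. With 3 arrays a group, the SE of a genotype difference at 1 stage reached 0.73 among the 8 genes, which limits the differences that could be detected.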
